A study of Mus musculus with 45 samples.

Results

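Whole visceral adipose tissue (VAT) of mice was compared between the sexes, as epididymal fat of males against periovarian fat of females, across all autosomal genes. It made up 6 of the 45 RNA-seq libraries of a series on sex differences of regulatory T cells in fat, with 3 libraries of male and 3 of female fat, each from RNA of 3 pooled mice. All mice were C57BL/6 and 25 weeks old, and carried no allele or treatment that the labels spell out. The labels also mark all 6 samples ND without saying what that stands for. X- and Y-linked genes were left out. Whole subcutaneous fat (SAT) and adipocytes isolated from VAT of the same strain and age, with 2 male and 2 female libraries each and 4 mice per pool, were used to ask whether a sex difference was the same elsewhere. Epididymal and periovarian fat are different depots as well as fat of different sexes, so sex and anatomical site cannot be told apart in VAT.

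Visceral fat holds lipid-storing adipocytes together with macrophages, lymphocytes, endothelium, mesothelium and fibroblast-like progenitors. Its macrophages include tissue-resident cells and, in expanding or inflamed fat, cells that gather around adipocytes, take up lipid and express genes of lysosomes and matrix breakdown. Fat also responds to sex steroids, which its cells can inactivate, and its cells keep a record of body position in their Hox genes.

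The 6 VAT libraries held between 31074323 and 61864521 reads assigned to genes. The adipocyte genes that define the tissue were abundant in both sexes: the adiponectin gene Adipoq was at 1917, 2340 and 2244 CPM (reads of a gene scaled to library size) in male and 3392, 2865 and 3000 CPM in female libraries. Among 20 epididymis and testis markers, 2 had enough reads to test, and of 19 autosomal ovary and oviduct markers 9 were tested. Neither list had a call in edgeR or DESeq2; at an unadjusted p under 0.05 edgeR gave 0 and 2 genes, and limma on the deposited log2 FPKM called 0 and 2. In a principal component analysis of the 6 libraries the first component took 61.1% of the variance and separated the sexes, and the second took 13.9% and separated female replicates 1 and 2, at 35.4 and -32.3, with female replicate 3 between them at 3.1.

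Of 15824 autosomal genes tested, 1336 (8.44%) were higher and 754 (4.76%) lower in male VAT at an adjusted p under 0.05 in edgeR's quasi-likelihood test, the rule for a call used throughout. The median log2 fold change of male over female was -0.03 over all of them. The median change was larger upward, with a fold of 2 among the 1336 genes called higher and 1.62 among the 754 called lower. At least a 2-fold difference was seen in 669 called genes (4.23%) higher and 258 (1.63%) lower in males. At least an 8-fold one was seen in 88 higher and 84 lower, so the largest changes were a bigger share of the genes called lower. Called or not, 3158 genes (20%) had all male libraries above all female ones in CPM, and 2983 (18.9%) had them all below. All log2 fold changes given here are male over female.

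**Figure D1:**
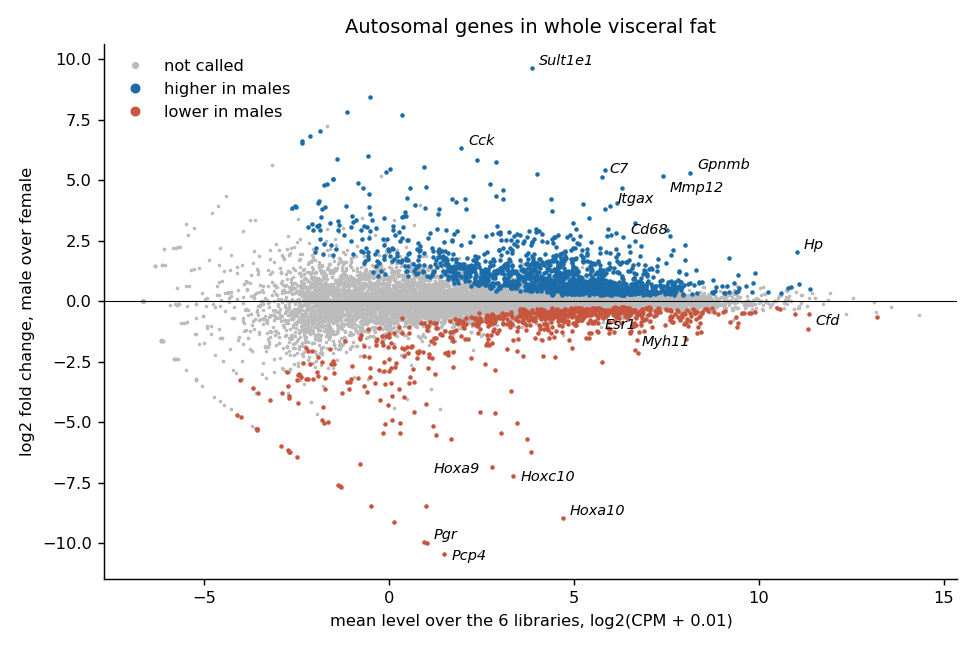
Each point is an autosomal gene, with its mean level over the 6 VAT libraries, as log2(CPM + 0.01), on the x axis and its log2 fold change, male over female, on the y axis. Called genes are blue (1336 higher in males) or red (754 lower in males) and the others grey. Sult1e1 stands highest at 9.63, and Hoxa10, Pgr and Pcp4 lie at the bottom.

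The gene with the largest rise in male VAT among those of at least 5 CPM was Sult1e1 (chr5:87575968-87591611, GRCm38.p6), which encodes the sulfotransferase that inactivates estrogens. Its level was 33.2, 22.5 and 31.8 CPM in male libraries, against 0, 0.0948 and 0 CPM in female libraries, where it had 4 reads in all. The groups were far apart, 9.63 apart on the log2 scale (SE 0.57, adjusted p = 6.46e-07 in edgeR). C7, a complement component, followed the same order at 141, 72.1 and 100.7 CPM in males, against 4.21, 2.96 and 1.56 CPM in females (log2 fold change 5.15, SE 0.46, adjusted p = 8.25e-06). Cck, the cholecystokinin gene, was at 11.6, 3.56 and 7.62 CPM in males and at most 0.142 CPM in females (6.33, adjusted p = 0.00028). Col6a5, a collagen VI chain gene, was at 230.4, 101.4 and 119.8 CPM in males, against 11.3, 3.23 and 3.12 CPM in females (4.67, SE 0.47, adjusted p = 2.15e-05). These genes belong to the 24 leading genes of VAT, which were picked for a call and for separate groups. That the sexes were separate in them is therefore no added result.

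Several of the other leading genes higher in males are known from macrophages or osteoclasts, the bone-resorbing cells of the same lineage. Gpnmb (chr6:49036518-49058182), a membrane glycoprotein of lipid-laden macrophages, was at 473, 548 and 628 CPM in male, against 15.7, 13.0 and 13.3 CPM in female libraries (log2 fold change 5.30, SE 0.31, adjusted p = 2.76e-07). Mmp12 (chr9:7344397-7360461), the macrophage elastase, was at 302, 309 and 372 CPM in males, against 12.2, 6.85 and 8.08 CPM in females (5.18, SE 0.45, adjusted p = 7.33e-06). In both genes, also picked for separate groups, every male library was far above every female one.

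The vacuolar proton pump subunit gene Atp6v0d2 was higher by 5.41 on the log2 scale, at 106, 105 and 125 CPM in males, against 3.03, 2.66 and 2.19 CPM in females. Rgs1, a regulator of G protein signalling in leukocytes, was higher by 5.28, at 30.4, 29.7 and 33.2 CPM in males, against 1.22, 0.569 and 0.575 CPM in females. Spp1, which encodes the secreted matrix protein osteopontin, was higher by 4.59, at 16.4, 12.1 and 20.5 CPM in males, against 1.11, 0.617 and 0.274 CPM in females. Tm4sf19 (5.85), the myosin heavy chain gene Myh15 (5.77) and Vsig8 (4.85) completed the 12 leading genes, and their male libraries lay between 8.07 and 18.9 CPM and their female ones at or under 0.498 CPM.

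Macrophage markers were higher in males as a group. Of 15 tested, 11 (73.3%) were called higher and 0 lower, with a median log2 fold change of 1.27. Over all 15 the CPM summed to between 2508 and 2819 in male libraries, against between 937.6 and 1084 in female libraries, without overlap. Cd68, a lysosomal protein of macrophages, was at 132, 145 and 140 CPM in males, against 24.4, 21.4 and 20.6 CPM in females (2.65, SE 0.23, adjusted p = 6.88e-06). Adgre1, which encodes the F4/80 antigen, was higher by 2.30 and Itgam, the integrin CD11b gene, by 1.65. In bulk tissue, fewer cells of a type and less RNA per cell cannot be told apart.

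The members of that list that did not pass the test were Mertk at 0.33, Lyve1 at 0.44, Cd163 at 0.00 and Timd4 at -0.26 on the log2 scale. The last 3 are known as markers of tissue-resident macrophages, and Cd163 was at 99.98, 71.2 and 69.1 CPM in male, against 70.2, 92.0 and 77.7 CPM in female libraries. The groups overlapped in all 4 genes. Mrc1 (0.86) and Folr2 (1.02), also linked to resident macrophages, were called higher.

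Genes of lipid-associated and inflammatory macrophages showed the largest share of calls of the 37 lists, with 14 of 17 (82.4%) higher, 0 lower and a median of 2.23. Itgax (chr7), which encodes CD11c, an integrin of dendritic cells and inflammatory macrophages, was at 127, 99.7 and 129 CPM in males, against 7.57, 7.28 and 8.52 CPM in females. That is a log2 fold change of 3.93 (SE 0.25, adjusted p = 5.14e-07), with no overlap. Trem2, a lipid-sensing receptor, was at 70.4, 68.6 and 75.8 CPM in males, against 3.29, 6.45 and 3.32 CPM in females (4.04, SE 0.51, adjusted p = 0.000135).

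Lysosomal and lipid-handling members of the list also rose. Lipa, the lysosomal acid lipase gene, was at 317, 321 and 304 CPM in males, against 82.8, 83.6 and 81.9 CPM in females, with little spread in either sex (1.92, SE 0.07, adjusted p = 1.48e-09). The galectin gene Lgals3 was higher by 2.31, the cathepsin gene Ctsk by 2.03 and the tetraspanin gene Cd9 by 1.35. The 3 members that were not called were the lipid carrier and uptake genes Fabp5 (0.43) and Cd36 (0.13), which adipocytes also express, and Nos2 (-0.22), the inducible nitric oxide synthase gene.

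**Figure D2:**
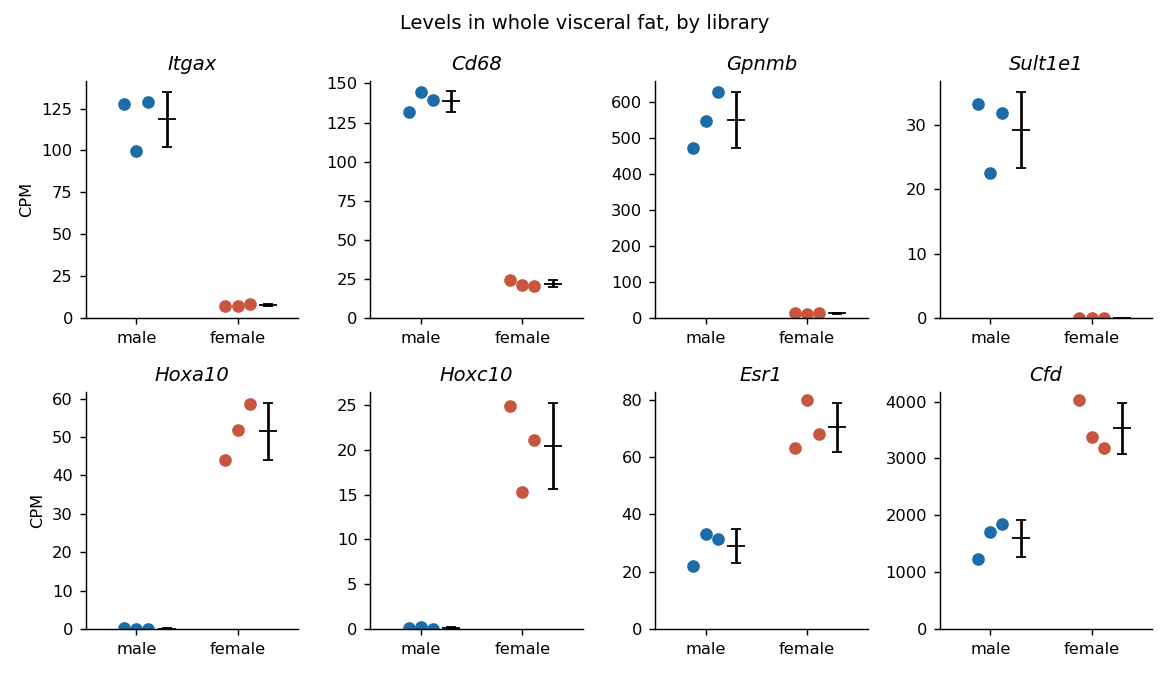
Each panel gives 1 gene in whole VAT, with CPM on the y axis from 0; points are the 3 male libraries (left, blue) and the 3 female libraries (right, red), and the black mark and bar beside them give the mean and SD. Itgax, Cd68, Gpnmb and Sult1e1 lie higher in all male libraries, and Hoxa10, Hoxc10, Esr1 and Cfd lie lower, without overlap.

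The promoters of 4 of these macrophage genes are shown because genes that rose together can be compared for shared sequence. They come from RefSeq on GRCm38.p6 and run from 250 bases before to 50 bases after an annotated start. Capitals mark matches on either strand to TGANTCA, the letters bound by AP-1 factors, or to GAGGAAGT, a form of the site of the myeloid factor PU.1; in no window did the 2 overlap. Gpnmb is chr6:49036268-49036567 on the plus strand, with 1 AP-1 match. Itgax is chr7:128129300-128129599 on the plus strand, with 1 AP-1 match. Cd68 is chr11:69666121-69666420 on the minus strand, with 2 AP-1 matches. Mmp12 is chr9:7344147-7344446 on the plus strand, 1 of 2 windows in the table, with 1 PU.1 match on the opposite strand. Where a gene had several windows, the one holding more of the motifs searched was printed, or the first by position if they were equal.
Gpnmb: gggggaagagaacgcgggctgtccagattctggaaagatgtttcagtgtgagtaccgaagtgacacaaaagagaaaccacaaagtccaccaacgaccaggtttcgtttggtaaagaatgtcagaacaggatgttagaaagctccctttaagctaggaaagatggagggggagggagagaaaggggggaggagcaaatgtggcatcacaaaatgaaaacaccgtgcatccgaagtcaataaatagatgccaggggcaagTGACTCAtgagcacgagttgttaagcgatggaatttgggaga
Itgax: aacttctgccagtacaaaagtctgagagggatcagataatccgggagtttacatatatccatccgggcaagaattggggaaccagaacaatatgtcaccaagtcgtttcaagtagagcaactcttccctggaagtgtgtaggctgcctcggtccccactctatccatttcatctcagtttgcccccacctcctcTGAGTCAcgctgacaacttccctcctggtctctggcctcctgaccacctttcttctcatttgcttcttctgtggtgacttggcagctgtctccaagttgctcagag
Cd68: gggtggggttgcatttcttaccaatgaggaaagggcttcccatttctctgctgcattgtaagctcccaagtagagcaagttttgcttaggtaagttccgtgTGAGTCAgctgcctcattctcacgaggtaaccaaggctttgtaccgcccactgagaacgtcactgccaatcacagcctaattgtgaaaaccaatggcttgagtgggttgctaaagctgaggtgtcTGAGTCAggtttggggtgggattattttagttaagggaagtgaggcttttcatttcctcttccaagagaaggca
Mmp12: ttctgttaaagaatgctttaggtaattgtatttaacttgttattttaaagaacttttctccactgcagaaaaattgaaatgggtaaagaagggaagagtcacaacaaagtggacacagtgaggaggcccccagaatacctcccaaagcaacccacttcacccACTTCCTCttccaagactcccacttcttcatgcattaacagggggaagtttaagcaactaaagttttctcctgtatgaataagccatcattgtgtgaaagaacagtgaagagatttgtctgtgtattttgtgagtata

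Over promoters of genes at least 2-fold higher in male VAT, 44 of 514 (8.56%) held GAGGAAGT and 63 (12.3%) held TGANTCA. Among genes at least 2-fold lower, 3 of 197 (1.52%) held GAGGAAGT and 12 (6.09%) held TGANTCA. Over all 12100 tested genes with a promoter in the table these shares were 3.68% and 7%, and over all 32851 windows in it 3.2% and 7.81%. A gene counted where any of its windows matched, so shares of genes and of windows are unlike measures. The palindromic estrogen response element, searched the same way, was in 0 promoters of either changed set and in 2 of the 12100. These are matches of letters, chosen with the results known, and no test was run on them.

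Other inflammatory genes were higher in males in part. Of 30 chemokines tested 8 were called higher and 0 lower, with a median of 0.33. Ccl2, which attracts monocytes through the receptor CCR2, was at 27.1, 43.5 and 33.9 CPM in males, against 7.55, 7.82 and 13.9 CPM in females (1.84, SE 0.31, adjusted p = 0.00148). Ccl9 was higher by 1.88, at 170, 175 and 175 CPM in males, against 57.9, 49.5 and 33.4 CPM in females. Ccl3 (2.57), Cxcl2 (2.34) and Ccl4 (1.74) were also called, from levels of at most 1.82 CPM.

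Cytokine genes were near the background, with 1 of 20 higher and 2 lower. Tgfb1 was higher by 0.88, at 60.5, 63.8 and 61.0 CPM in males, against 32.8, 32.4 and 35.9 CPM in females. The 2 that fell both encode ligands of the macrophage growth receptor CSF1R: Il34 was at -0.64 (adjusted p = 0.00154) and Csf1 of -0.36 (adjusted p = 0.0495). Csf1 is at the threshold, and its call was lost with DESeq2 size factors (adjusted p = 0.0582) and without any 1 library other than female replicate 1 (adjusted p between 0.0732 and 0.2). Tnf was at 1.46, 1.33 and 1.84 CPM in males, against 0.682, 0.285 and 0.548 CPM in females. Its groups did not overlap, as in 20% of all autosomal genes with males higher, but Tnf missed the threshold (1.6, adjusted p = 0.0532). It was called by DESeq2 (adjusted p = 0.008), with only the VAT libraries in the fit (adjusted p = 0.014) and with the replicate block (adjusted p = 0.0189).

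Il33, whose product sustains regulatory T cells of visceral fat, was at 10.5, 6.21 and 7.88 CPM in male, against 16.0, 17.7 and 8.05 CPM in female VAT. The groups overlapped and the difference was not called (-0.76, SE 0.30, adjusted p = 0.126). Genes of visceral fat regulatory T cells included 1 call among 19, Ccr2, the CCL2 receptor, at 0.78 (adjusted p = 0.0213). It was at 94.8, 111 and 98.9 CPM in males, against 57.6, 67.8 and 52.4 CPM in females, and macrophage markers, whose cells also express Ccr2, moved with it; their part in it was not tested. Il1rl1, the IL-33 receptor gene, was at 16.7, 19.1 and 16.0 CPM in males, against 14.3, 12.5 and 11.3 CPM in females (0.44, adjusted p = 0.386).

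General lymphocyte and dendritic cell markers gave few calls. For T cells 0 of 11 were called, for NK cells and innate lymphoid cells 0 of 12 and for dendritic cells 0 of 11, with medians of 0.14, 0.46 and 0.31. At an unadjusted p under 0.05 edgeR gave 0, 0 and 2 genes of these lists, DESeq2 called 0, 0 and 0, and limma on the log2 FPKM called 0, 0 and 3. B cell markers had 1 call of 12, the inhibitory receptor gene Cd22 at 1.83. T cell markers summed to between 33.06 and 35.42 CPM in male and between 29.59 and 44.62 CPM in female libraries, which overlapped.

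Genes of antigen presentation were called more often. Of 11 MHC class II genes 5 rose and 0 fell, with a median of 0.71. H2-Aa was at 424, 425 and 415 CPM in males, against 288, 214 and 221 CPM in females (0.81, adjusted p = 0.0257). Ciita, which activates the other genes and is counted among the 5, was higher by 1.32 (adjusted p = 7.84e-05). The count dropped to 2 when any of the 3 male libraries, female replicate 2 or female replicate 3 was left out.

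Some acute phase genes rose as well. Hp, which encodes the hemoglobin scavenger haptoglobin, was at 3689, 3183 and 3112 CPM in males, against 577, 914 and 949 CPM in females (2.03, SE 0.30, adjusted p = 0.000508). Lcn2, which encodes an iron-sequestering lipocalin, was higher by 4.12 and Saa3, a serum amyloid gene, by 2.86. Within the list of complement and acute phase genes 6 of 18 rose and 1 fell, Cfd. The calprotectin gene S100a8 was at 15.6, 9.42 and 10.9 CPM in males, against 1.79, 1.57 and 1.84 CPM in females (2.79), whereas its partner S100a9 was not called (0.32); of 10 neutrophil markers 5 had enough reads to test, of which S100a8 and Csf3r (1.04) rose and Mmp9 fell (-1.14).

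Cell cycle genes were higher in males in 14 of 20 cases and lower in 0, with a median of 1.09. Mki67, a marker of dividing cells, was at 41.9, 41.6 and 42.5 CPM in males, against 15.6, 11.9 and 10.0 CPM in females (1.75, SE 0.26, adjusted p = 0.000581). Top2a, a topoisomerase of dividing cells, was higher by 1.62 (SE 0.15) and the replication helicase subunit gene Mcm5 by 1.23. The list summed to between 224.3 and 229.4 CPM in males and between 102 and 112.6 CPM in females, so the sexes were separate and the male libraries nearly equal. Which cells carried these transcripts was not measured.

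**Figure D3:**
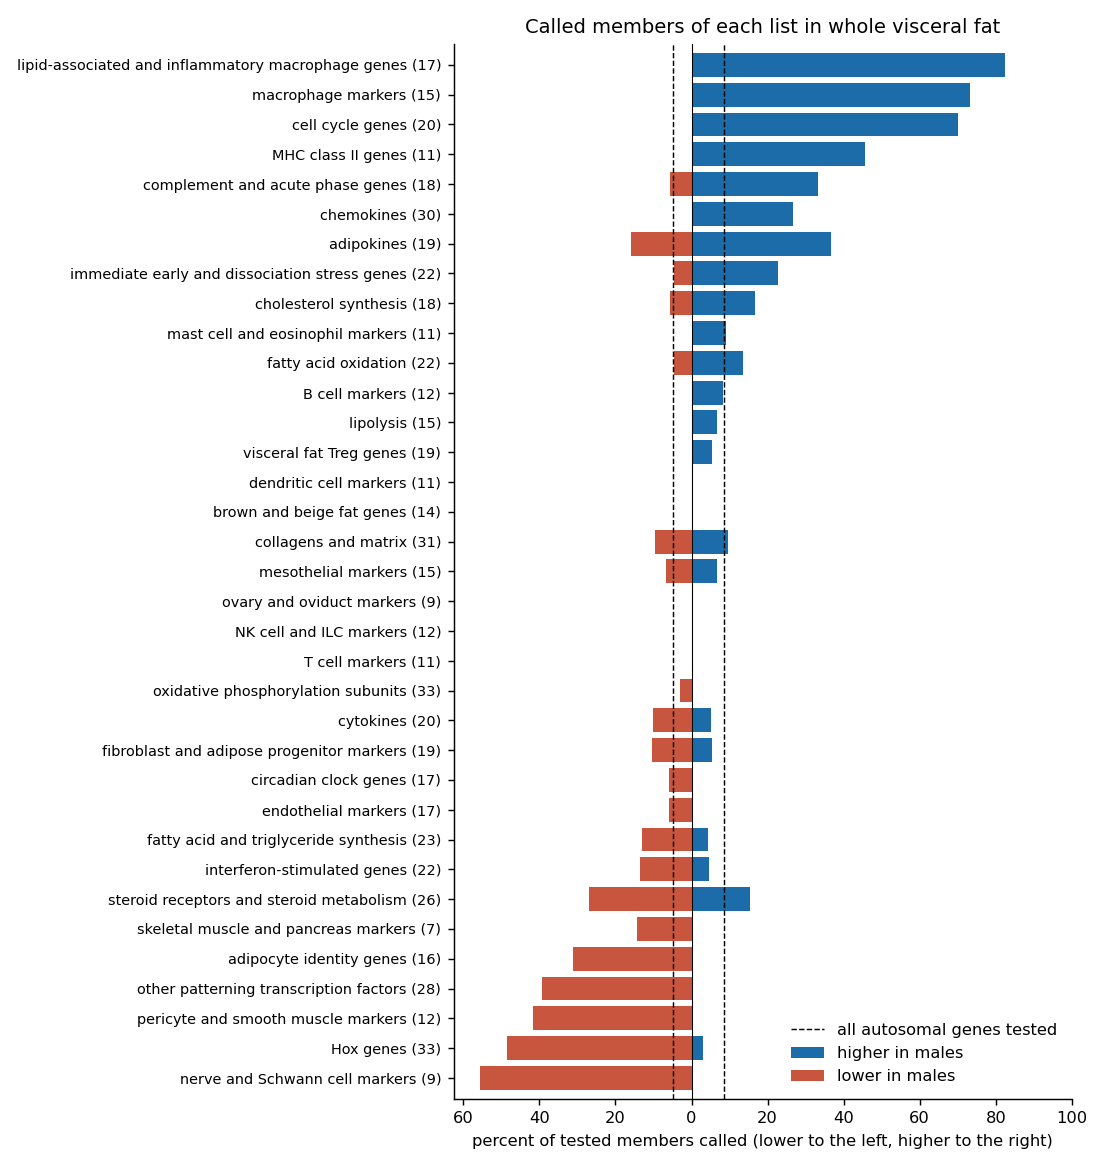
Bars give, for the 35 lists with at least 7 tested members (number in brackets), the percent of tested members called higher in male VAT (right, blue) and lower (left, red). Dashed lines mark the same percents over all autosomal genes, 8.44 and 4.76. Macrophage lists and cell cycle genes stand at the top, and Hox genes and nerve markers at the bottom.

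Steroid-related genes moved in both directions, with 4 of 26 tested higher and 7 lower in males. Besides Sult1e1, the genes that rose were Fkbp5, a cochaperone gene induced by glucocorticoids and androgens, at 43.1, 36.2 and 36.0 CPM in males, against 15.2, 18.0 and 14.9 CPM in females (1.26, SE 0.11, adjusted p = 5.91e-06), Hsd11b1, which regenerates active glucocorticoid (0.80), and Srd5a3 (0.29). The estrogen receptor gene Esr1 fell, at 22.1, 33.0 and 31.5 CPM in males, against 63.2, 80.0 and 68.1 CPM in females (-1.29, SE 0.15, adjusted p = 5.86e-05). The glucocorticoid receptor gene Nr3c1 (-0.34) and the growth hormone receptor gene Ghr (-0.52) fell by less.

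Pgr and Greb1, both known as targets of estrogen receptor signalling, were lower in male VAT. Pgr, the progesterone receptor gene, had 0 reads in all 3 male libraries and was at 0.988, 8.94 and 2.14 CPM in females. Against a floor of 3 reads over the male group it was at least 193-fold higher in females (adjusted p = 0.00764). Greb1 was at 0.133, 0.150 and 0.0889 CPM in males, against 0.706, 5.00 and 3.51 CPM in females (-4.56, SE 0.96, adjusted p = 0.00642). In both genes female replicate 1 was the lowest female library, and in no case did the sexes overlap.

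The aldo-keto reductase genes Akr1c18, which inactivates progesterone, and Akr1c14 fell by 2.90 and 2.25 on the log2 scale. Akr1cl, of the same gene family, was at 0.398, 0.827 and 0.800 CPM in males, against 8.35, 12.1 and 43.2 CPM in females (-5.04, SE 0.63, adjusted p = 0.000132). These genes are similar in sequence, and how reads matching several of them were counted is unstated in the labels.

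Adipocyte identity genes were lower in males in 5 of 16 cases and higher in 0, with a median of -0.26. Cfd, which encodes adipsin, a complement factor secreted by adipocytes, was at 1230, 1708 and 1853 CPM in males, against 4033, 3372 and 3183 CPM in females (-1.14, SE 0.23, adjusted p = 0.00555). The adipokine gene Retn fell by 0.91, the insulin-responsive glucose transporter gene Slc2a4 by 0.66, Car3 by 0.65 and Adipoq by 0.51. The list summed to between 34220 and 35680 CPM in male and between 39790 and 45940 CPM in female libraries. Macrophage markers were higher where this list was lower, and their part in the result was not tested. In isolated VAT adipocytes the list went the other way, with 11 of 16 higher in males, 0 lower and a median of 0.69. Over all autosomal genes 14.8% were higher in male adipocytes. The female adipocyte libraries held more markers of other cells. Endothelial markers summed to 5816 and 5503 CPM in them, against 1473 and 1472 CPM in male ones. The part of other cells in this reversal was not tested. By the test of the difference, 12 of the 16 had a more negative sex difference in whole VAT than in adipocytes, against 12.4% of all autosomal genes.

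Other hallmark genes of adipocytes did not pass the test. Lep, the leptin gene, was at 3941, 4241 and 4634 CPM in males, against 3366, 3253 and 3582 CPM in females (0.33, adjusted p = 0.279), and Pparg, the main regulator of adipocyte formation, was at 181, 195 and 180 CPM in males, against 217, 206 and 204 CPM in females (-0.17, adjusted p = 0.243). Neither gene overlapped between the sexes, which was also so for 20% of all autosomal genes with males higher and 18.9% with males lower. Among 19 adipokines 7 rose and 3 fell; besides Lcn2 and Saa3, those that rose included Metrnl (1.43), Angptl4 (0.61), Nrg4 (0.51) and Nampt (0.41).

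Metabolic lists stayed close to the background in whole VAT. Of 23 genes of fatty acid and triglyceride synthesis 1 rose and 3 fell: Gpam, the first enzyme of glycerolipid synthesis, was at 189, 197 and 216 CPM in males, against 464, 423 and 571 CPM in females (-1.28, SE 0.16, adjusted p = 0.000151), Elovl6 was at -1.29 and Fads1 at -0.68, while Agpat2 was at 0.74. Fatty acid oxidation had 3 of 22 higher and 1 lower, cholesterol synthesis 3 of 18 and 1, lipolysis 1 of 15 and 0, and brown and beige fat genes 0 of 14 in either direction (3 at an unadjusted p under 0.05 in edgeR, 1 called by DESeq2). Of 33 oxidative phosphorylation subunits 1, Ndufv1, was called (-0.28, adjusted p = 0.0356), with a list median of -0.17.

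Several Hox genes, which mark position along the body axis, were far lower in males. Hoxa10 (chr6:52231197-52240854), a homeodomain factor of posterior body segments and the reproductive tract, was at 0.148, 0.0251 and 0.0889 CPM in males, against 44.0, 51.8 and 58.7 CPM in females. Its log2 fold change was -8.98 (SE 0.32, adjusted p = 1.48e-09), on 14 reads over the male and 6199 over the female group. Hoxc10 (chr15:102966796-102971898) was at 0.133, 0.226 and 0.0296 CPM in males, against 24.9, 15.3 and 21.1 CPM in females (-7.21, SE 0.35, adjusted p = 4.08e-08). Hoxa9 was at 0.133, 0.0251 and 0.178 CPM in males, against 12.0, 14.4 and 14.3 CPM in females (-6.86, SE 0.34). All female libraries were far above all male ones in these 3 leading genes, which were picked for separate groups.

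The falls differed by the position of the gene within its cluster. Hox genes are numbered by paralog group from 1 to 13, low numbers being used toward the head and high numbers toward the tail. Of 11 tested genes of paralogs 9 to 13, 10 were lower and 0 higher in males, with a median of -6.86, or -5.18 with the 4 genes without male reads set at their bound. Of 22 tested genes of paralogs 1 to 8, 6 were lower and 1 higher, with a median of -0.08. The member of the high paralogs that was not called was Hoxb9 at -0.19, and the 8 tested genes of the Hoxb cluster lay between -0.24 and 0.38 without a call.

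The Hoxa11, Hoxa13, Hoxd11 and Hoxc11 genes had 0 reads in every male library. Against a floor of 3 reads over the male group, Hoxa11 was at least 179-fold, Hoxa13 at least 63.8-fold, Hoxd11 at least 36.2-fold and Hoxc11 at least 13.6-fold higher in females. Hoxa11 was at 1.01, 5.52 and 5.07 CPM in the female libraries. Hoxd10 fell by 3.63, Hoxc9 by 1.96 and Hoxd9 by 1.83 on the log2 scale. DESeq2 did not call Hoxd11 (adjusted p = 0.312). Hoxc4, an anterior member, went the other way at 14.7, 22.6 and 21.6 CPM in males, against 10.1, 9.37 and 8.71 CPM in females (1.06, SE 0.18, adjusted p = 0.00122).

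**Figure D4:**
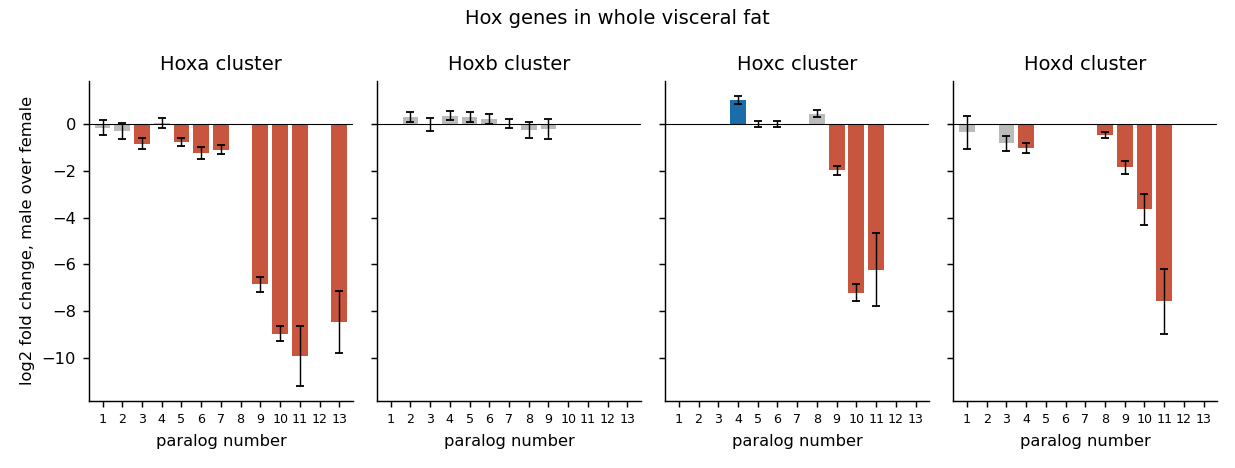
The 4 panels are the Hox clusters A to D, with the paralog number on the x axis and the log2 fold change in VAT, male over female, on the y axis; error bars are the SE. The bars of Hoxa11, Hoxa13, Hoxc11 and Hoxd11, with 0 male reads, depend on the prior count of the fit. Bars are red where lower in males, blue where higher and grey where not called. Paralogs 9 and above fall steeply in clusters A, C and D, and Hoxb genes stay near 0.

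Other patterning transcription factors were lower in males in 11 of 28 cases and higher in 0, with a median of -0.63. Tbx5, known from forelimb and heart patterning, was at 0.0443, 0 and 0.119 CPM in males, against 0.588, 0.593 and 1.07 CPM in females (-3.78, SE 0.78, adjusted p = 0.00577). Emx2, needed for the urogenital tract, was at 0.841, 0.852 and 0.889 CPM in males, against 1.86, 9.56 and 5.70 CPM in females (-2.72, adjusted p = 0.00171). Gata6 fell by 1.22, Irx5 by 2.49 and Osr2 by 2.09. Tbx15 was called at -3.52 but its groups overlapped, and without female replicate 1 it was at -0.88 (adjusted p = 0.523). The count of 11 was between 4 and 7 when any male library or female replicate 2 was left out.

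Markers of nerve and Schwann cells were lower in males in 5 of 9 tested. Ngfr, the low-affinity neurotrophin receptor gene, was at 0.605, 0.476 and 0.593 CPM in males, against 1.95, 14.9 and 24.8 CPM in females (-4.62). Sox10 fell by 2.58, Cdh19 by 2.09 and S100b by 1.41. Nrn1 (-5.46), which promotes neurite growth, and Myoc (-3.71), also expressed by Schwann cells, belonged to the 12 leading genes lower in males, and the general neuronal gene Uchl1 was at -0.04 and the myelin genes Mbp and Pmp22 at 0.10 and 0.16, none of them called.

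Smooth muscle genes were lower in males, with 5 of 12 pericyte and smooth muscle markers called, and they were highest in female replicate 2. Outside the list, Actg2, an actin of visceral smooth muscle, was at 0.531, 0.301 and 0.207 CPM in males, against 4.00, 79.6 and 1.73 CPM in females (-6.24, SE 1.28, adjusted p = 0.00537). Cnn1, a calponin gene, was at 0.723, 0.351 and 0.326 CPM in males, against 6.00, 69.4 and 2.16 CPM in females (-5.69, adjusted p = 0.00508). Without female replicate 2, Actg2 was at -2.98 and Cnn1 at -3.05, both called, and the list had 3 calls. Myh11, at -2.02 with all libraries, was then at -0.82 and not called (adjusted p = 0.15), and Tagln, at -2.13 with all, was at -1.36. Without any 1 of the male libraries the list had 2 calls. The pericyte genes Rgs5 (-0.46), Kcnj8 (-0.32) and Abcc9 (-0.12) were not called.

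The largest fall among the leading genes was that of Pcp4, a calmodulin-binding protein gene, which had 0 reads in males and was at 0.118, 16.4 and 0.219 CPM in females. Against the floor of 3 reads over the male group it was at least 274-fold higher in females (adjusted p = 0.0297). Its level rests on female replicate 2, the library in which smooth muscle genes were also highest, and without that library the call was lost (-5.40, adjusted p = 0.0923). It was lost as well without any 1 of the male libraries (adjusted p between 0.074 and 0.0981) and by limma on the log2 FPKM (adjusted p = 0.0624).

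Further structural lists moved little. Collagens and matrix genes had 3 of 31 higher and 3 lower: besides Col6a5, Col12a1 rose by 2.18 and the fibronectin gene Fn1 by 1.08, and Col1a1 fell by 0.65, Thbs1 by 1.07 and Timp3 by 0.45. Among 19 fibroblast and adipose progenitor markers Pdgfra rose by 0.62, and Fgf10, a growth factor gene of progenitors, fell by 1.00 (Zfp423 fell by 0.37), at 75.3, 76.2 and 71.9 CPM in males, against 146, 134 and 167 CPM in females. Endothelial markers had 0 of 17 higher and 1 lower, Gpihbp1 at -0.50. Mesothelial markers had 1 of 15 higher and 1 lower, Slpi at 1.70 and Cldn15 at -0.77, with a median of -0.60.

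Stress and interferon lists were also examined. Of 22 immediate early and dissociation stress genes 5 rose and 1 fell; Atf3 was at 55.9, 59.2 and 55.0 CPM in males, against 8.26, 4.41 and 5.23 CPM in females (3.24, SE 0.25, adjusted p = 2.76e-06), Egr2 was higher by 2.29 and Fos by 1.83, and Nr4a2 was lower at -1.02. The list summed to between 828.4 and 866.5 CPM in males and between 572.3 and 652.7 CPM in females, and its part in the other differences was not tested. Interferon-stimulated genes had 1 of 22 higher and 3 lower, and clock genes 0 of 17 higher and 1 lower. Mast cell and eosinophil markers had 1 call of 11, the eotaxin receptor gene Ccr3 at 2.74, and skeletal muscle and pancreas markers 1 of 7, Myl1 at -0.56.

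Whether these sex differences were particular to visceral fat was asked by testing the sex difference in VAT minus that in SAT. It was called for 2589 autosomal genes, with a more positive male over female difference in VAT for 1586 (10%) and a more negative one for 1003 (6.34%). In SAT itself 1160 genes (7.33%) were higher and 1507 (9.52%) lower in males. Of the 1336 genes higher in male VAT, 145 were also higher in male SAT, which is 10.9% of the VAT list and 12.5% of the SAT list. Of the 754 lower genes 157 were lower in both, 20.8% of the VAT list and 10.4% of the SAT list. In the opposite direction in SAT were 161 genes higher and 44 genes lower in male VAT.

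The sex difference of Hoxa10, Hoxa9 and Hoxc10 differed between the depots. Hoxa10 was at 45.8 and 45.5 CPM in male, against 43.7 and 31.1 CPM in female SAT, a log2 fold change of 0.29 there, and the difference between the depots was -9.27 (SE 0.41, adjusted p = 1.36e-07). Hoxa9 and Hoxc10 followed with -8.05 and -7.86. Hoxa9 was at 22.9 and 30.9 CPM in male, against 11.7 and 11.9 CPM in female SAT, and Hoxc10 at 35.3 and 47.2 CPM in male, against 27.8 and 24.6 CPM in female SAT. All SAT libraries thus held these 3 transcripts, which were under 1 CPM in male VAT. Of the 11 tested genes of paralogs 9 to 13, 5 had a more negative sex difference in VAT, 0 a more positive one and 6 were not called. Of the 22 tested genes of paralogs 1 to 8, 4 had a more negative one, Hoxa3, Hoxa5, Hoxa6 and Hoxa7, and 0 a more positive one.

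Macrophage genes also differed between the depots. For lipid-associated and inflammatory macrophage genes 11 of 17 had a more positive sex difference in VAT and 0 a more negative one, and for macrophage markers 6 of 15 and 0. Gpnmb differed by 4.00, Mmp12 by 4.39 and Itgax was at -0.29 in SAT (adjusted p = 0.61), against 3.93 in VAT. Macrophage markers summed to 888.2 and 444.4 CPM in male, against 654.9 and 503.2 CPM in female SAT. Cell cycle genes had 13 of 20 with a more positive difference in VAT, and MHC class II genes 6 of 11. Oxidative phosphorylation subunits went the other way, with 26 of 33 more negative in VAT and 0 more positive. In SAT itself 27 of these 33 were higher in males and 0 lower. Fatty acid oxidation had 12 of 22 more negative and 2 more positive, and adipocyte identity genes 8 of 16 and 0. The shares among all autosomal genes were 6.34% more negative and 10% more positive.

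For some genes a difference between the depots was not called. Sult1e1 was at 10.76 in SAT (adjusted p = 5.15e-05 in edgeR) and C7 at 4.73, as log2 fold changes. Sult1e1 averaged 6.83 CPM in male and 0 CPM in female SAT, so its size there depends on the prior count of the fit and is no bound. The same holds for its difference between the depots, -1.13 (SE 1.51). That of C7 was 0.42 (SE 0.68). Neither difference was called, which does not show that the depots are equal. Pgr was at -7.92 and Fkbp5 at 1.53 in SAT, also called there. Hsd11b1 was called higher in both but by more in SAT, at 2.99, and that difference was called. Of the 24 leading genes of VAT 4 were called in the same direction in SAT, and 16 differed between the depots. Over all autosomal genes 16.4% differed. The leading genes were picked for the size of their difference in VAT, which is part of that test, so a high count was favoured by the choice.

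**Figure D5:**
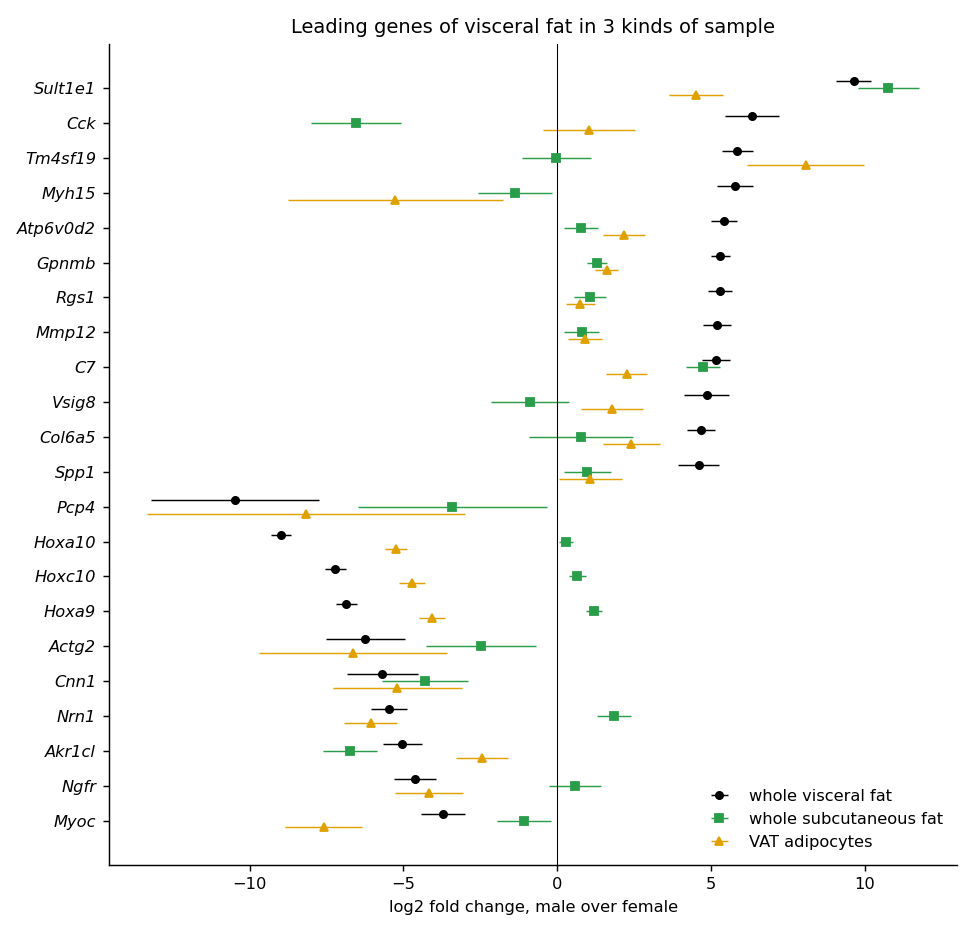
A set of 22 of the 24 leading genes of VAT runs down the page, 12 higher in males above 10 lower in males, with the log2 fold change, male over female, on the x axis and the SE as bars. Black circles are whole VAT, green squares whole SAT and yellow triangles VAT adipocytes. Points where 1 sex had 0 CPM, such as Sult1e1 in SAT, depend on the prior count of the fit. Sult1e1 and C7 lie to the right in all 3, and Hoxa10, Hoxc10 and Hoxa9 lie to the left in VAT and adipocytes but near 0 or above in SAT.

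Against VAT adipocytes, the sex difference of whole VAT differed for 4968 autosomal genes, 3004 (19%) more positive and 1964 (12.4%) more negative in whole VAT. Hoxa10 was at 1.43 and 0.519 CPM in male, against 36.3 and 30.7 CPM in female adipocytes, a log2 fold change of -5.25, smaller than the -8.98 of whole VAT (difference -3.73, SE 0.64, adjusted p = 0.000904). Gpnmb and Atp6v0d2 were called higher in male adipocytes too, at 1.6 and 2.16, but by less than in whole VAT. Of the 24 leading genes 14 were called in the same direction in adipocytes, where 36.1% of autosomal genes were called, 14.8% higher and 21.2% lower in males.

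The female adipocyte libraries held more markers of other cells than the male ones, which bears on this comparison. T cell markers summed to 4.017 and 2.489 CPM in male, against 26.16 and 27.71 CPM in female adipocyte libraries, endothelial markers to 1473 and 1472 against 5816 and 5503 CPM, and macrophage markers to 283.4 and 206.3 against 404.8 and 533.8 CPM. Of 17 endothelial markers 14 and of 15 macrophage markers 12 had a more positive sex difference in whole VAT than in adipocytes. The part of other cells in this comparison was not tested.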

How the data were processed

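RNA-seq of whole VAT (3 male and 3 female libraries), whole SAT and VAT adipocytes (2 and 2 each) was used. The labels say that libraries were made from pools of mice with a TruSeq kit. The authors deposited a table of whole-number read counts per gene, by Entrez identifier. Per the submitters' processing notes, Subread 1.6.2, featureCounts and limma were used with GRCm38 (mm10); no source used here states the strand or multi-mapping settings, so reads of a gene and an overlapping antisense gene cannot be told apart. The table has 6 columns that match no sample, which were not used. For each library the authors deposited log2 FPKM values, whose further scaling is unstated; with genes centred, each of the 6 VAT files was closest to its own library's counts. Names and chromosomes came from the deposited files and a RefSeq table of GRCm38.p6, which gave the coordinates and promoters; identifiers without a name took 0.515% to 1.02% of VAT reads.

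Counts of the 14 libraries were fitted together in edgeR 4.0.16 (R 4.3.3) with TMM factors, filterByExpr by group, glmQLFit and glmQLFTest, with group as the term, and Benjamini-Hochberg adjustment over all 16917 genes. From these, 15824 autosomal genes are reported; 553 X- or Y-linked, 15 mitochondrial and 525 without a known chromosome are not. CPM are TMM-scaled. SE was taken as the absolute log2 fold change over the root of F. Against a group at 0 reads, folds use a floor of 3 reads over the group and cover counting error only. On simulated counts of VAT (16710 genes), edgeR recovered 93% of 100 genes given a 2-fold and 100% of 100 given a 4-fold change, and also called 16 genes left alone. The counts of replicates differed beyond sampling noise in every pair (chi-square per degree of freedom 14.7 to 66.4), so none was merged. Each library is 1 pool, and p-values measure the spread between pools, for which the labels name no further source.

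The genes to describe, and 37 lists with 692 genes, were chosen with earlier results of these data known. Of the list members 615 were tested, 5 are X- or Y-linked and 72 had too few reads or no match. Leading genes are those called with the 12 highest and 12 lowest log2 fold changes among genes with separate groups and a mean of 5 CPM or more in the higher one, gene models aside; for the tests of a difference, the 5 most positive and 5 most negative. The fit was repeated with DESeq2 1.42.0, with its size factors inside edgeR, without the low-count filter, on the compared groups alone, without X- and Y-linked genes, with a replicate block, without each library in turn and, added after the data were seen, limma 3.58.1 on the log2 FPKM values of the 6 VAT libraries. Some genes that the rules name are not reported here.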

Additional observations from a re-analysis of the deposited data

Results flagged for a closer look

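For the genes below the male over female difference in whole VAT differed from that in another kind of fat sample by a test of that difference itself (edgeR quasi-likelihood test, adjusted p under 0.05). Values are the log2 fold change in VAT minus that in the other sample.

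Against SAT, the most positive differences were Macc1 at 13.48, Krt14 at 12.92, Cck at 12.87, Dsp at 12.58 and Cldn7 at 12.49. Macc1, the keratin gene Krt14, the desmosome gene Dsp and the tight junction gene Cldn7 were under 2 CPM in all VAT libraries and at 0 or at most 0.0469 CPM in male SAT. They were at 6.66 and 12.7 CPM (Macc1), 14.0 and 27.4 CPM (Krt14), 21.6 and 52.6 CPM (Dsp) and 5.54 and 15.9 CPM (Cldn7) in female SAT, so these values rest largely on female SAT. Of the 4, Dsp was also called higher in male VAT (2.05, SE 0.49, adjusted p = 0.0153). The mesothelial list holds the keratin genes Krt8, Krt18 and Krt19 but none of these 4 genes. It summed to 33.49 and 35.81 CPM in male, against 357.3 and 745.6 CPM in female SAT. Genes outside that list were also higher in female SAT, where 1507 autosomal genes were lower and 1160 higher in males. Gata3 averaged 1.08 CPM in male and 52.3 CPM in female SAT, Cxcl15 0.0234 and 18.8 CPM, and Lcn2 0.88 and 22.5 CPM. Which cells of female SAT carried these transcripts was not tested. Cck was higher in male VAT (6.33) and lower in male SAT (-6.54).

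The most negative differences against SAT were Hoxa10 at -9.27, Hoxa9 at -8.05, Hoxc10 at -7.86, Nrn1 at -7.32 and Rn7sk, a small nuclear RNA, at -6.70. Of the other leading genes of VAT, Myh15 differed by 7.14, Tm4sf19 by 5.88, Vsig8 by 5.74, Atp6v0d2 by 4.64, Mmp12 by 4.39, Rgs1 by 4.22, Gpnmb by 4.00 and Spp1 by 3.61. On the side lower in males, Ngfr differed by -5.19. Without SAT female replicate 1 the calls of Myh15 (4.35, adjusted p = 0.387), Vsig8 (3.76, adjusted p = 0.386), Tm4sf19 (5.89, adjusted p = 0.06) and Spp1 (1.21, adjusted p = 0.594) were lost. That of Spp1 was also lost without VAT male replicate 1 or 3, VAT female replicate 3 or SAT male replicate 2 (3.06 to 3.6, adjusted p between 0.0542 and 0.0782), and that of Macc1 without VAT male replicate 2 (11.23, adjusted p = 1).

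Against VAT adipocytes, the most positive differences were the immunoglobulin gene Igkv3-2 at 11.93, Myh15 at 11.04, Cyp11a1, the enzyme that starts steroid synthesis, at 10.96, Igkv19-93 at 10.80 and Ifitm1 at 9.95. All 5 had 0 CPM in both male adipocyte libraries, so each size depends on the prior count of the fit and is no bound. Igkv3-2 (1.63), Cyp11a1 (0.63) and Ifitm1 (-0.37) were not called in whole VAT. In female adipocytes Igkv3-2 was at 6.23 and 4.19 CPM, Cyp11a1 at 9.76 and 1.11 CPM and Ifitm1 at 5.40 and 4.74 CPM. Reads of immunoglobulin genes can be shared between near-identical copies, and Igkv3-2 was at 47.3 CPM in VAT male replicate 3 and at most 3.44 CPM in the other two males. The calls of Igkv3-2 and Igkv19-93 were lost without any 1 of the 4 adipocyte libraries, with adjusted p between 0.0613 and 0.146, that of Igkv19-93 also without VAT female replicate 1 (adjusted p = 0.0514), and that of Myh15 without adipocyte male replicate 2 (adjusted p = 0.0619) or female replicate 1 (adjusted p = 0.183). Among the most negative differences were Hoxa10 at -3.73, Lypd6b at -3.21 and Scd3 at -2.90. Lypd6b and Scd3 were not called in whole VAT and were higher in male adipocytes, where Scd3 was at 11.25 and 8.09 CPM in males, against 1.25 and 2.09 CPM in females.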

How the results depend on the processing

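The count of 2090 genes called in VAT was between 2077 and 3033 with DESeq2, DESeq2 size factors, no filter, only the VAT libraries, X- and Y-linked genes out, and the replicate block. With limma on the authors' log2 FPKM, over 14691 genes, it was 3208, of which 1651 were higher and 1557 lower. The share of higher calls was thus 51.5% there, against 63.9% in the reported fit; the cause was not tested. Leaving out 1 library gave between 1189 and 1735 calls in VAT, with 1189 (886 higher, 303 lower) without VAT male replicate 1 and 1313 without VAT male replicate 3. For the difference between VAT and SAT (2589) the range was 1624 to 2647, with 1624 without SAT female replicate 2, and for that between VAT and adipocytes (4968) 3665 to 4880. Where this left 1 sample in a group, that sample was assumed to vary like the others. Same-numbered male and female libraries did not deviate together (correlations 0.012, 0.083 and -0.065), so the numbers were not taken as pairs; the replicate block gave 2369 calls in VAT, 2901 against SAT and 5297 against adipocytes. Of 183 named or listed genes followed, 0 reversed under any alternative, and without VAT male replicate 1 the calls of 50 were lost. Macrophage markers had 9 to 11 members higher, lipid-associated macrophage genes 14 to 15, cell cycle genes 11 to 18 and Hox genes 12 to 16 lower over all alternatives. With 3 pools per sex, folds of genes at few reads have wide errors.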

Other observations

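Stromal cells sorted from VAT, with or without the surface protein GP38 (podoplanin), were in the same series with 2 libraries per sex, made with another kit, so their levels are set side by side within these libraries only and not tested here. They are CPM of all reads. Sult1e1 was at 1690 and 2000 CPM in male, against 2.02 and 0.0188 CPM in female GP38-positive stroma, and at 211 and 117 CPM in male and 0 CPM in both female libraries of GP38-negative stroma. C7 was at 2910 and 1930 CPM in male, against 66.9 and 41.1 CPM in female GP38-positive stroma. Hoxa10 was at 1.40 and 1.25 CPM in male, against 81.5 and 75.0 CPM in female GP38-positive stroma. The order of the sexes for these 3 genes was that of whole VAT.

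Gpnmb, which differed by 5.30 on the log2 scale in whole VAT, was at 338 and 286 CPM in male, against 275 and 246 CPM in female GP38-positive stroma. Itgax was at most 2.59 CPM in all 4 GP38-positive libraries. Pgr had 0 CPM in both male and was at 2.19 and 4.17 CPM in both female GP38-positive libraries, and 0 CPM in all 4 GP38-negative ones.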
